A study of Mus musculus with 12 samples.

Results

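The genes examined were 8 members of the S100 family of calcium-binding proteins, S100a1, S100a3, S100a4, S100a6, S100a10, S100a11, S100a13 and S100a16, of 25759 genes in the expression tables of mouse embryonic stem cells (ESCs). They were chosen by name after earlier TPM values of the same 12 libraries, by genotype and induction, were known. Their genotype difference is therefore described without a test, and tests are given for the response to Xist induction. All 8 genes lie on chromosome 3 and were found in all 12 tables, and each is set against the median shift of chromosome 3 in the same library.

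RNA was sequenced from HATX3 ESCs, in which the endogenous Xist gene is driven by a doxycycline-inducible promoter, with the transactivator expressed from the Rosa26 locus. All 12 libraries carry this system. Wild-type samples 1, 2 and 3 are parental HATX3 ESCs. Samples 8, 11 and 15 are the ΔCdk8 clones, each grown from a cell in which CRISPR had removed a short stretch with the start codon of Cdk8, the gene of a kinase of the Mediator complex. Each clone is thus a line of its own, and a difference from parental cells can belong to the clone. Each sample was taken without doxycycline (uninduced) and after 48 h in 1 µg/ml doxycycline (induced), giving 4 groups of 3 libraries. The parental line is diploid, although its origin was a haploid embryo. Nothing in the sources used here states that the wild-type samples were separate cultures.

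S100 proteins are small EF-hand proteins that form dimers, bind calcium and then expose a surface for target proteins such as annexins and nonmuscle myosin. They have no enzyme activity of their own, act in membrane traffic, the cytoskeleton and calcium handling, and some are also released from cells. Most of the genes lie side by side in a conserved cluster, and S100a4, S100a6, S100a10 and S100a11 are known as genes of adherent, mesenchymal and epithelial cells more than of naive ESCs.

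Exon reads per library ranged from 20872956 to 56457625. The deposited TPM values, which are exon reads per exon length scaled per library, allow levels of different genes to be compared. Cdk8 TPM lay between 64.2 and 74.2 in uninduced wild-type and between 34.4 and 85.3 in uninduced ΔCdk8 cells. The transcript level thus did not separate the genotypes. The authors detected no Cdk8 protein in the mutant clones on western blots. The overlap in transcript level therefore does not show that the clones kept the protein. Differences between libraries of 1 group bear on the values below. Wild-type sample 1 stood apart from wild-type samples 2 and 3 in the S100 genes, with a summed TPM of the 8 genes of 568 uninduced and 698 induced, against 137 and 158 uninduced and 145 and 157 induced. ΔCdk8 clones 8 and 15 had higher medians over chromosome 3 than wild-type cells, and clone 11 had not. Genotype ratios of the members other than S100a3 and S100a4 are therefore also given without wild-type sample 1 and without clone 11.

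In the GRCm38 coordinates of the tables, 6 of the genes stand together in the order S100a1 (chr3:90511034-90514392, reverse strand), S100a13 (chr3:90514435-90524581), S100a16 (chr3:90537254-90543151), S100a3 (chr3:90560578-90602702), S100a4 (chr3:90603771-90606045) and S100a6 (chr3:90612882-90624181). S100a11 (chr3:93520488-93526287) and S100a10 (chr3:93555080-93564643) form a second group on the same chromosome. Apart from S100a1 all are on the forward strand. S100a1 and S100a13 are transcribed away from each other, and only 42 bases lie between their annotated starts. RefSeq gave start regions, from 250 bases before to 50 after the start, for 7 of the 8 genes, and 5 motifs were searched on both strands in them and in all 32544 such regions of the genome. The sequences shown are the interval between the divergent pair, and the 250 bases before the RefSeq start of S100a4, the gene with the fewest wild-type reads, of S100a6, a gene that differed strongly among wild-type samples, and of S100a11, the most abundant of the 8. Bases are on the forward strand of GRCm38.p6, from chr3:90514393-90514434, chr3:90603520-90603769, chr3:90612644-90612893 and chr3:93520246-93520495, and capitals mark the motifs.
S100a1 and S100a13 interval: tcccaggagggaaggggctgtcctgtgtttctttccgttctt
S100a4: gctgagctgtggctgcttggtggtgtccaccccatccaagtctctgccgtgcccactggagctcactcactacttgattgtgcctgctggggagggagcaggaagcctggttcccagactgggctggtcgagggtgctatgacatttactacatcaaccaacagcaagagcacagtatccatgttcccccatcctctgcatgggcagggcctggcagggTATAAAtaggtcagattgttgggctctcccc
S100a6: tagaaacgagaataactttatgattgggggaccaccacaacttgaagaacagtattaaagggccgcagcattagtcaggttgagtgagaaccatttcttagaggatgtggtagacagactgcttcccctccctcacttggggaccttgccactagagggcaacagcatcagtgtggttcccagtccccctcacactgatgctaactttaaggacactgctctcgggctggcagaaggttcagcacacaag
S100a11: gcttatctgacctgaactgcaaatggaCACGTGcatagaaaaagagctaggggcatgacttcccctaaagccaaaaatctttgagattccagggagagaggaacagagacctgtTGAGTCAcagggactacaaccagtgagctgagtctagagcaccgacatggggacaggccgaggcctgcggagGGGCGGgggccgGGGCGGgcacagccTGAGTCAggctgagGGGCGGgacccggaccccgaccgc

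The S100a4 region held TATAAA, the core of a TATA box, from position −31 to −26, a motif present in 13.6% of all start regions. The S100a11 region held GGGCGG, a GC box, 3 times, the AP-1 motif TGAGTCA (searched as TGANTCA) 2 times and the E-box CACGTG 1 time. Of all start regions 35.9% held the GC box, 7.79% the AP-1 motif and 7.17% the E-box. None of the 5 motifs stood in the printed S100a6 stretch, and its E-box lay just after the start, from position 14 to 19. TATAAA was also found at an S100a3 start, the AP-1 motif and a GC box at S100a16, and a GC box and the TEAD motif GGAATG, which 14.6% of regions hold, at another S100a3 start. No motif was shared by more than 3 of the 7 genes. A match of letters describes the sequence and does not show that a factor binds there.

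S100a6, S100a10 and S100a11 were the abundant members, and all had higher mean levels in the ΔCdk8 clones. S100a10 forms a stable complex with annexin A2 and is unusual in the family in that it no longer needs calcium. Its level in uninduced wild-type samples 1, 2 and 3 was 129, 50.2 and 50.4 TPM, and in clones 8, 11 and 15 it was 318, 227 and 317 TPM. Every clone lay above every wild-type sample, with a mean of 288±52.4 TPM against 76.6±45.5 TPM (mean±s.d., n = 3), which is 3.75-fold. The ratio was 5.71-fold without wild-type sample 1 and 4.15-fold without clone 11. After induction the levels were 131, 59.4 and 48.6 TPM in wild-type and 303, 202 and 327 TPM in the clones, again without overlap.

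S100a6, also known as calcyclin, binds the calcyclin-binding protein Cacybp and annexins. It was at 168, 11.2 and 15.2 TPM in uninduced wild-type samples 1, 2 and 3, and at 439.6, 304 and 372 TPM in clones 8, 11 and 15. The groups did not overlap, but wild-type sample 1 was 12.7-fold above the mean of the other wild-type samples. The mean over the clones was 5.74-fold that of wild-type cells, 28.2-fold without wild-type sample 1, 6.26-fold without clone 11 and 2.21-fold when wild-type sample 1 was the only reference. In induced cells the values were 160.1, 11.6 and 10.5 TPM in wild-type and 415, 253 and 392 TPM in the clones, and wild-type sample 1 was 14.5-fold above the others. The wild-type spread of this gene was thus found again in a separate library of the same number.

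S100a11, a partner of annexin A1, was the most abundant of the 8 in the mean of each group. Its uninduced levels were 259, 66.7 and 84.8 TPM in wild-type samples 1, 2 and 3 and 607, 202 and 739.6 TPM in clones 8, 11 and 15. Here the groups overlapped, because clone 11 lay below wild-type sample 1. The means of 516±280.1 and 137±106 TPM (mean±s.d., n = 3) differed 3.77-fold, 6.81-fold without wild-type sample 1 and 4.92-fold without clone 11. Clones 8 and 15 were 3.33-fold above clone 11 in this gene, against 1.34-fold in S100a6 and 1.40-fold in S100a10. Within the family the order of the 3 abundant genes changed with the line. S100a11 led in all 3 wild-type samples and in clones 8 and 15, whereas S100a6 led in clone 11. In uninduced wild-type cells the ranges of the 3 genes overlapped, and all lay above those of the other 5.

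S100a1 and S100a13, the divergent pair, were expressed at low levels and differed most between the clones among the 6 members with more than a few reads. S100a1 is best known from heart and skeletal muscle, where it acts on calcium release and uptake, and S100a13 takes part in the release of Fgf1 and Il1a, which lack a signal peptide. S100a1 was at 3.36, 2.05 and 1.05 TPM in uninduced wild-type samples 1, 2 and 3 and at 18.97, 3.16 and 21.1 TPM in clones 8, 11 and 15. S100a13 was at 5.97, 1.99 and 2.86 TPM in the same wild-type samples and at 24.6, 4.44 and 17.1 TPM in the clones. In both genes clone 11 fell within the wild-type range while clones 8 and 15 lay above it. Clones 8 and 15 exceeded clone 11 by 6.34-fold in S100a1 and 4.69-fold in S100a13. The mean over all clones was 6.69-fold that of wild-type for S100a1, 9.30-fold without wild-type sample 1 or without clone 11, and for S100a13 it was 4.26-fold, 6.33-fold without wild-type sample 1 and 5.78-fold without clone 11. In log2(TPM + 1) over the 12 libraries S100a1 and S100a13 had a Pearson correlation of 0.94, S100a6 and S100a10 of 0.98, and the lowest among the 28 pairs of members was 0.68, between S100a13 and S100a16. These libraries share samples, clones and the chromosome 3 shift, so the correlations are a description.

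S100a16, a widely expressed member, differed least. Its levels were 2.99, 4.54 and 3.40 TPM in uninduced wild-type samples 1, 2 and 3 and 5.86, 4.20 and 7.78 TPM in clones 8, 11 and 15. Clone 11 lay within the wild-type range, and wild-type sample 1 had the lowest of the wild-type values. The means differed 1.63-fold in uninduced cells, 1.497-fold without wild-type sample 1 and 1.87-fold without clone 11. In induced cells they differed 1.85-fold, and with 3.76, 2.67 and 2.21 TPM in wild-type and 4.98, 4.85 and 6.16 TPM in the clones, the groups no longer overlapped.

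S100a4 and S100a3 were near the limit of detection in wild-type cells. S100a4 binds the nonmuscle myosin heavy chain and is a known marker of fibroblasts and motile cells, and S100a3 is best known from the hair cuticle. S100a4 was at 0, 0 and 0.146 TPM in uninduced wild-type samples 1, 2 and 3, from 2 reads in all, and at 4.26, 1.501 and 7.11 TPM in clones 8, 11 and 15, from 139 reads. Per exon read sequenced this is a ratio of 59.9, with an exact 95% interval of 16.3 to 499.8 that covers counting error only and is no test of the genotypes. In induced cells 73 reads in the clones (2.26, 0.559 and 6.24 TPM) stood against 7 reads in wild-type (0.934, 0 and 0 TPM), all 7 from sample 1, a ratio of 8.57. S100a3 was at 0.180, 0.0797 and 0.0477 TPM in uninduced wild-type samples and at 1.64, 0.245 and 1.60 TPM in clones 8, 11 and 15, from 60 and 4 reads, a ratio of 12.9. In induced cells the ratio was 2.63 from 32 and 10 reads, 9 of the 10 from wild-type sample 1, and the groups overlapped. The levels of both genes are uncertain. Exons of the gene model Gm42674 on the same strand cover 302 of the 584 exonic bases of S100a4 and 144 of the 5660 annotated for S100a3. Only 46.2% of the S100a4 and 28.3% of the S100a3 exon reads were uniquely mapped. Uniquely mapped S100a4 reads numbered 71 in uninduced clones and 1 in uninduced wild-type cells, and 28 and 2 in induced cells. Those of S100a3 numbered 14 in uninduced clones and 0 in uninduced wild-type cells, and 11 and 5 in induced cells.

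**Figure D1:**
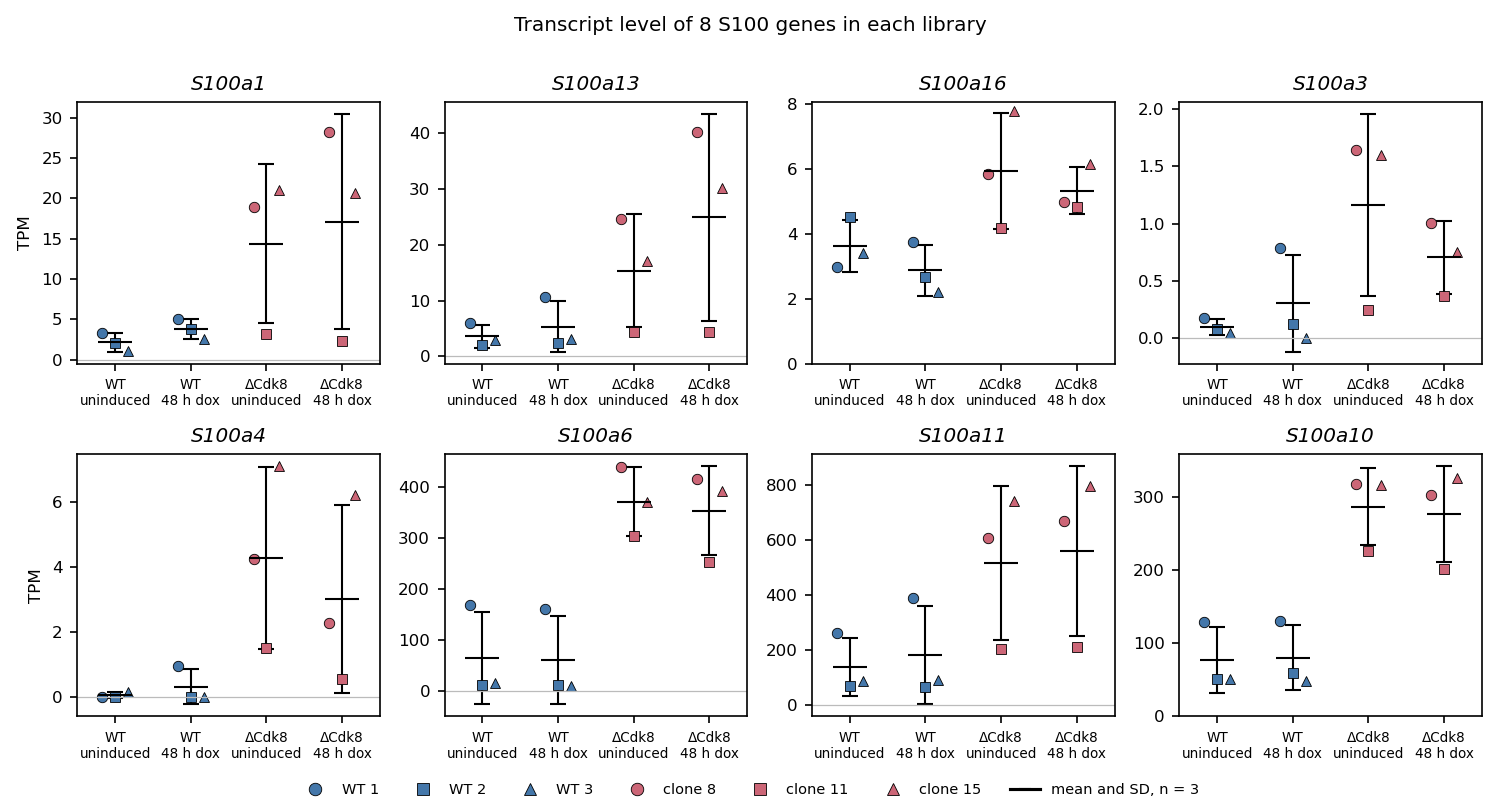
Transcript level in TPM (linear axes) of the 8 S100 genes in each of the 12 libraries, with circles for wild-type sample 1 and clone 8, squares for wild-type sample 2 and clone 11, and triangles for wild-type sample 3 and clone 15, and with the mean and SD of 3 libraries in black. S100a6 and S100a10 separate the genotypes in both conditions, wild-type sample 1 is the highest wild-type sample in S100a6, S100a10 and S100a11, and clone 11 lies in or near the wild-type range in S100a1 and S100a13.

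Over the 8 genes, 4 (S100a3, S100a4, S100a6 and S100a10) had all 3 uninduced clones above all 3 uninduced wild-type samples, or 3 of the 7 members that passed the read filter, which S100a3 did not. Over all 13961 genes tested in this comparison, 16.6% were separated in this direction, and 22.3% of the 629 genes tested on chromosome 3. In the other direction 6.94% of all genes and 1.43% of chromosome 3 genes were separated, and 0 members. In induced cells 3 members (S100a6, S100a10 and S100a16) were separated, against 19.1% of all genes and 24.0% of chromosome 3 genes, and 0 members in the other direction, against 10.1% and 1.91%. Because the members were chosen with these values known, nothing is read from these counts. In bulk RNA, more cells that express a gene and more RNA of it per cell cannot be told apart.

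The shift of chromosome 3 was small beside the difference of most S100 genes. Over 524 chromosome 3 genes with a mean of at least 1 TPM in uninduced wild-type cells, S100 genes excluded, the median ratio to the wild-type mean, relative to 10828 genes of the other autosomes, was 1.44-fold in clone 8, 0.987-fold in clone 11 and 1.57-fold in clone 15. The wild-type samples lay between 0.977-fold and 1.05-fold. After induction the clones were at 1.42-fold, 0.955-fold and 1.62-fold. All 8 S100 genes lay above the chromosome 3 median in each uninduced clone, by a median log2 difference of 2.14 in clone 8, 0.96 in clone 11 and 1.66 in clone 15. Over the 6 members other than S100a3 and S100a4, whose wild-type counts were too low to fix a ratio, these medians were 1.83, 0.60 and 1.52. In induced clones 8 and 15 the count was 7 of 8, with S100a16 below the chromosome 3 median by log2 differences of −0.11 and −0.081, and in induced clone 11 it was 8 of 8. In the uninduced clones S100a16 was the member closest to the median of its chromosome, 0.054 above it in clone 8, 0.25 in clone 11 and 0.27 in clone 15 on the log2 scale. In induced clone 11 S100a1 (0.21) and S100a13 (0.35) were closer to it than S100a16 (0.49).

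The position of single members within chromosome 3 differed between clones. For S100a6 the log2 ratio to wild-type exceeded the chromosome 3 median by 2.13 in clone 8, 2.27 in clone 11 and 1.70 in clone 15, and only 1, 1 and 8 of the 524 chromosome 3 genes had a ratio at least as high. For S100a10 the excess was 1.42, 1.61 and 1.23, with 29, 6 and 29 genes at least as high. Both genes thus had about the same excess in clone 11, which lacked the chromosome 3 shift, as in clones 8 and 15. For S100a1 the excess was 2.51 in clone 8 and 2.47 in clone 15 but 0.60 in clone 11, where 56 chromosome 3 genes had a ratio at least as high. S100a13, with 2.14, 0.35 and 1.42 in clones 8, 11 and 15, and S100a11, with 1.52, 0.61 and 1.61, followed S100a1 in having the lowest value in clone 11. Differences between the clones rest on 1 uninduced library each. With wild-type samples 2 and 3 as the reference, an alternative chosen after seeing the data, the excess in clones 8, 11 and 15 was 4.37, 4.54 and 3.94 for S100a6, 1.97, 2.19 and 1.78 for S100a10 and 2.93, 1.05 and 2.89 for S100a1, and the median over the 6 members was 2.49, 1.24 and 2.18. S100a16 then lay below the chromosome 3 median in clone 8 (a log2 difference of −0.13) and 0.10 and 0.098 above it in clones 11 and 15. The induced library of the same clone, against the mean of all 3 uninduced wild-type samples, gave 2.12, 2.05 and 1.76 for S100a6 and 3.15, 0.21 and 2.43 for S100a1.

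**Figure D2:**
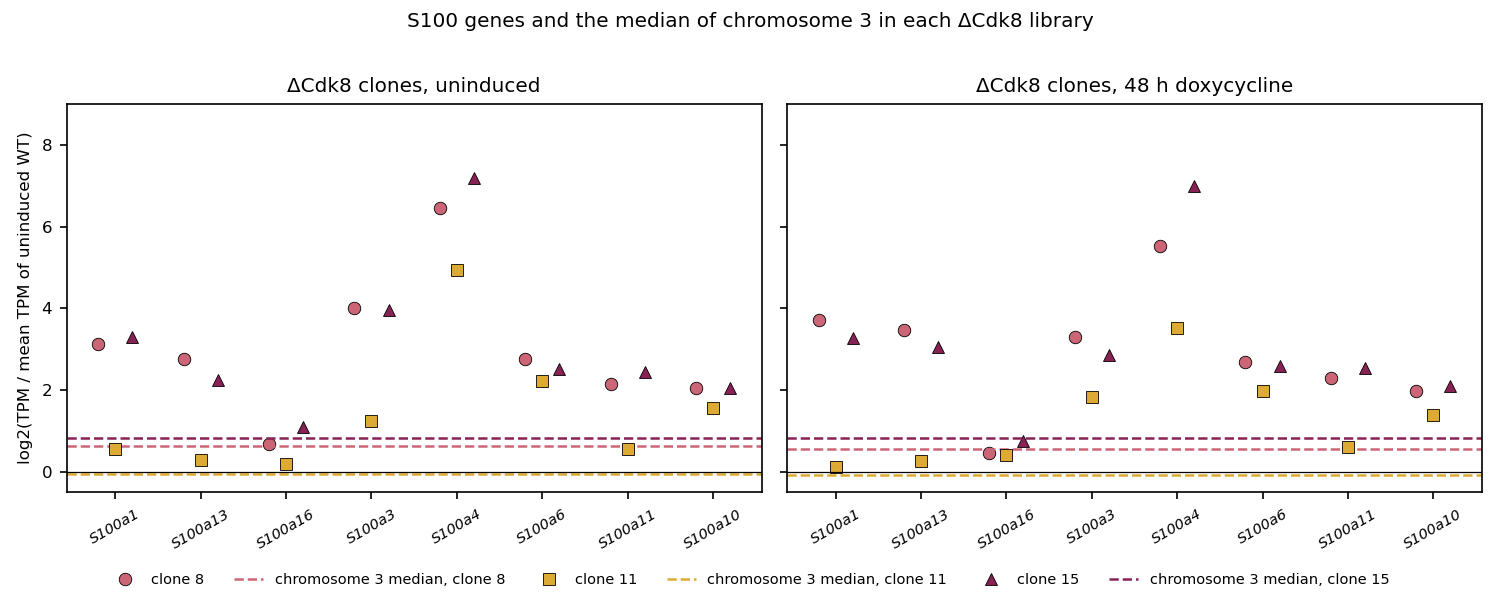
Log2 ratio of TPM to the mean of the uninduced wild-type samples for the 8 S100 genes (x axis) in each ΔCdk8 library, uninduced on the left and after 48 h with doxycycline on the right, with a dashed line for the median of chromosome 3 genes in the same library. S100a6 and S100a10 lie above the line by similar amounts in the 3 clones, S100a1, S100a13 and S100a11 do so mainly in clones 8 and 15, and S100a16 lies close to the lines.

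Outside the S100 family, the expressed genes of the same stretch had a median ratio near that of chromosome 3. Between the outermost members and within 500 kb beyond them 96 genes are listed without the S100 genes, of which 19 had a mean of at least 1 TPM over the 12 libraries, and 5 of these had all uninduced clones above all uninduced wild-type samples. Their median log2 ratio to wild-type was 0.49 in clone 8, 0.047 in clone 11 and 0.73 in clone 15. Of the 19 genes 17 lie before S100a1, so the medians describe that side more than the surroundings of S100a10 and S100a11. S100a14, which lies between S100a13 and S100a16 and also passed 1 TPM, was left out of these genes as a family member and is described with the other S100 genes. Creb3l4, which encodes a transcription factor of the Creb3 family and was named after its values were seen, had the highest log2 ratio of the 19, at 1.45, with 4.60, 2.33 and 2.999 TPM in wild-type samples 1, 2 and 3 and 10.9, 4.14 and 12.1 TPM in clones 8, 11 and 15. The nearest expressed gene outside the family, Chtop, which encodes a chromatin-associated RNA export factor and ends 1536 bases from S100a1, was at 104, 121 and 118 TPM in uninduced wild-type samples and 124, 104 and 135 TPM in clones 8, 11 and 15. Snapin (35.3, 25.8 and 23.2 against 60.8, 22.9 and 73.4 TPM) and Ilf2 (301, 288 and 280 against 397, 299 and 429 TPM), the next genes on that side, were higher in clones 8 and 15 than in any wild-type sample, and clone 11 did not lie above wild-type sample 1. Between the 2 groups of S100 genes Gm9774 and Tchh were the expressed genes outside the family. Of 10 genes in that distance beyond S100a10 none reached a mean of 1 TPM over the 12 libraries, although Tdpoz4 was at 1.39 TPM in uninduced clone 15.

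**Figure D3:**
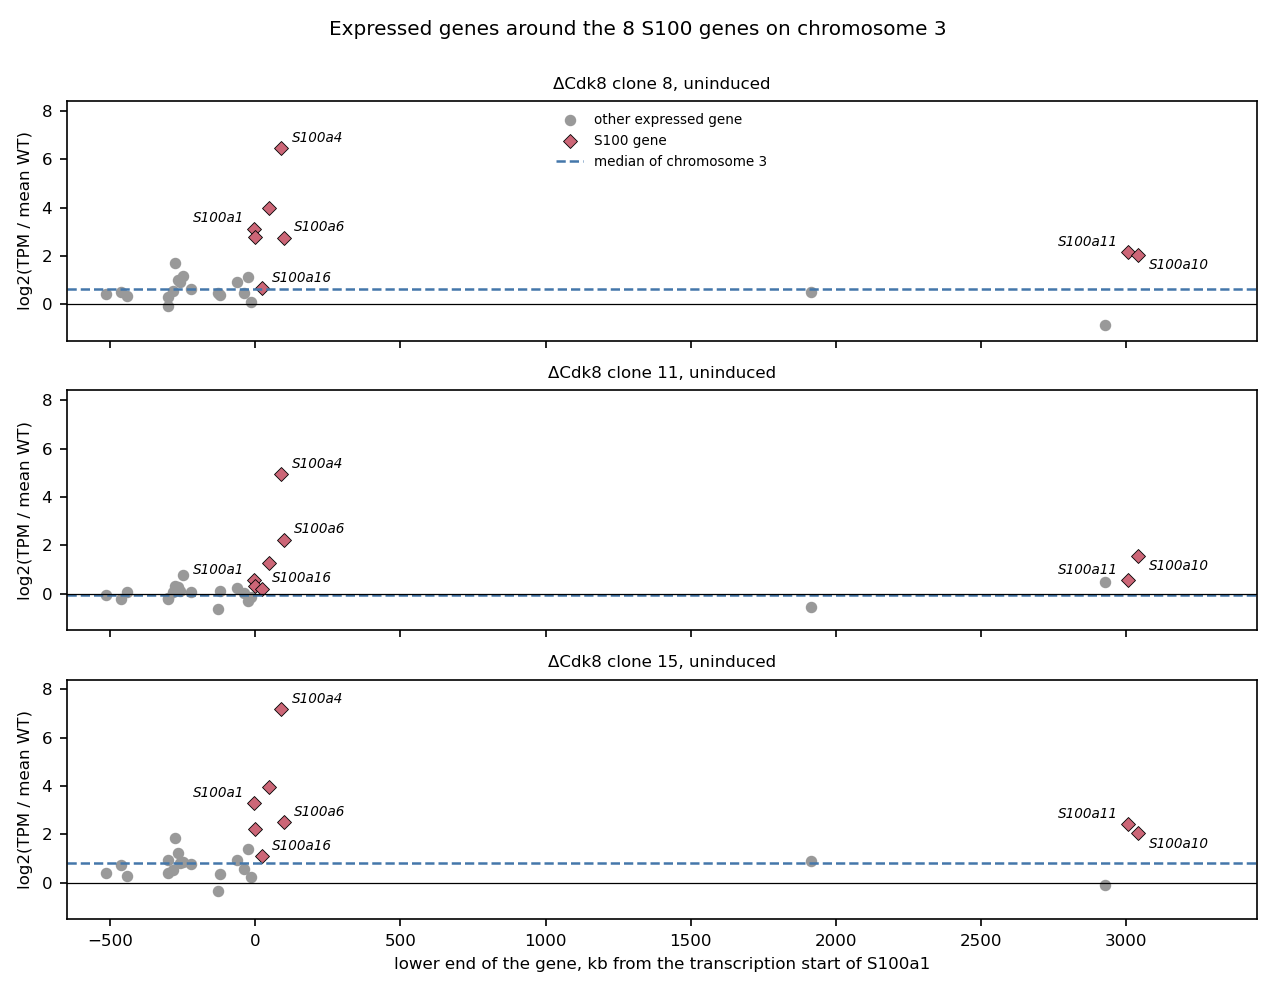
Log2 ratio of TPM to the mean of uninduced wild-type samples in each uninduced ΔCdk8 clone for the 8 S100 genes (diamonds) and the 19 expressed genes outside the S100 family (grey points), against the distance of the gene's lower end from the S100a1 start in kb. The dashed line is the median of chromosome 3 in that clone, and the grey points lie around it while most S100 genes lie above it.

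Xist induction was compared within each genotype. With edgeR's quasi-likelihood test on exon reads and a threshold of a more than 2-fold change at an adjusted p under 0.01, no S100 gene passed in either genotype. In wild-type cells 6 members had enough reads, 0 passed and 0 had an unadjusted p under 0.05, whereas 1.07% of 13342 genes tested were called. In ΔCdk8 cells all 8 were tested, 0 passed and 0 had an unadjusted p under 0.05, with 0% of 14129 genes called. DESeq2, which gave no p for S100a6 in wild-type cells, called 0 members in each genotype and gave 0 an unadjusted p under 0.05, with 4.71% and 0.219% of genes called. Samples of the same number deviated together, and with the number or clone as a block edgeR called 3.98% of genes in wild-type and 1.42% in ΔCdk8 cells, among them 0 members. With the block 1 member in each genotype had an unadjusted p under 0.05, beside 5251 of 13342 genes in wild-type and 3390 of 14129 in ΔCdk8 cells.

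S100a1 had the largest log2 fold change in wild-type cells among the 6 members that passed the read filter. Without the filter S100a4 and S100a3, with few reads, had larger ones of 2.11 and 1.56 (adjusted p of 0.594 and 0.617 from edgeR). It was at 3.36, 2.05 and 1.05 TPM uninduced and 5.05, 3.76 and 2.58 TPM induced in samples 1, 2 and 3, so that it was higher after induction in 3 of 3 pairs, with a ratio of 1.93±0.489 (mean±s.d., n = 3). The ranges of the groups overlapped, and the log2 fold change of 0.86 (SE, the standard error, 0.53) had an adjusted p of 0.407 from edgeR, or 0.94 (SE 0.36) and an adjusted p of 0.112 with the block. In the clones the ratio was 1.07±0.381, with 18.97, 3.16 and 21.1 TPM uninduced and 28.3, 2.35 and 20.7 TPM induced. The difference between the genotypes in this response had a log2 value of −0.53 (SE 1.14), with an adjusted p of 1.00 from edgeR.

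S100a13 was the member closest to a call in ΔCdk8 cells. Clones 8, 11 and 15 went from 24.6, 4.44 and 17.1 to 40.3, 4.34 and 30.2 TPM, higher in clones 8 and 15 and about the same in clone 11. The log2 fold change was 0.74 (SE 0.83, adjusted p of 1.00 from edgeR). With the clone as a block it was 0.65 (SE 0.18, adjusted p of 0.0234 from edgeR), below the 2-fold threshold. In wild-type cells S100a13 was higher after induction in 3 of 3 pairs, with a ratio of 1.35±0.372. S100a4 was lower after induction in 3 of 3 clones, with a ratio of 0.593±0.258, a log2 fold change of −0.49 (SE 0.84) and an adjusted p of 1.00 from edgeR, or 0.295 with the block.

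The abundant members had small fold changes on induction. The log2 fold changes of S100a6 with the block were −0.15 (SE 0.13) in wild-type and −0.050 (SE 0.080) in ΔCdk8 cells, of S100a10 0.10 (SE 0.10) and −0.026 (SE 0.077), and of S100a11 0.26 (SE 0.12) and 0.14 (SE 0.074). Without the block the SE of S100a6 in wild-type cells was 1.36, because of wild-type sample 1. In the test of the difference between the genotypes, 0 of 8 members passed with edgeR, as did 0% of 14418 genes, and 0 members had an unadjusted p under 0.05. DESeq2 called 0 members and 0.222% of genes, and edgeR with the block 0 members and 1.01% of genes. The largest differences were those of S100a4 and S100a3, at −2.59 (SE 1.91) and −2.19 (SE 1.56) on the log2 scale, from few wild-type reads. Without wild-type sample 1 they were 2.52 and −0.33, and without wild-type sample 3 that of S100a4 was −5.76.

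**Figure D4:**
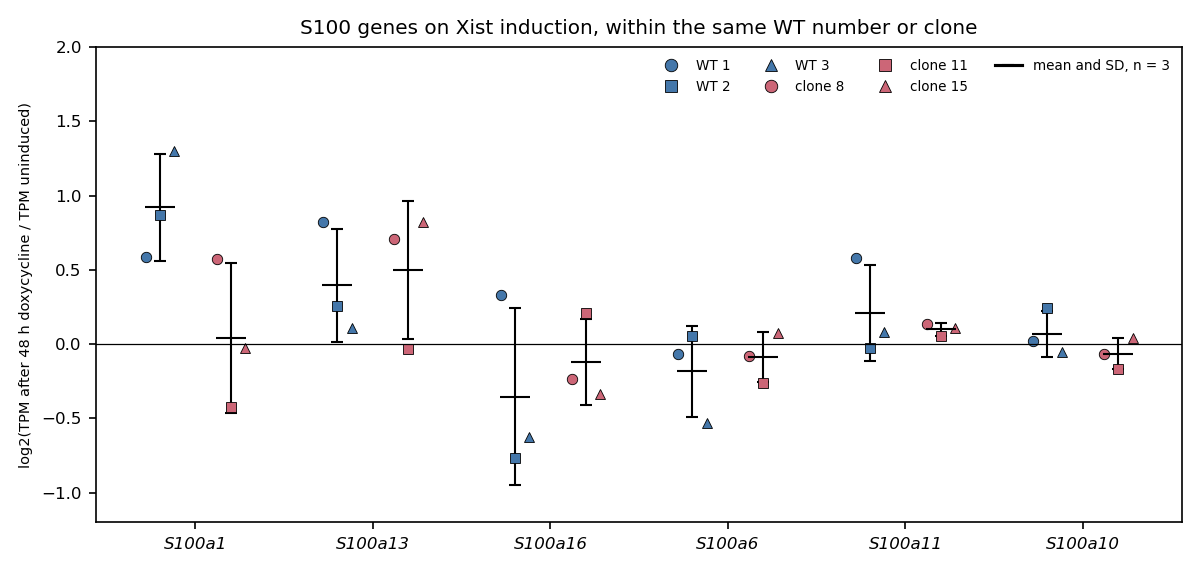
Log2 ratio of TPM after 48 h with doxycycline to TPM of the uninduced library of the same wild-type sample or clone, for the 6 S100 genes with enough reads in both genotypes, with the mean and SD of 3 pairs in black. S100a1 is above 0 in all 3 wild-type pairs, S100a13 is above 0 in clones 8 and 15 and slightly below it in clone 11, and S100a6, S100a11 and S100a10 lie near 0 in the clones.

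Of the other S100 genes only S100a14 and S100pbp, which encodes a binding protein and not a family member, had enough reads to be tested between the uninduced genotypes. The log2 fold change of S100pbp was 0.36 (adjusted p of 0.238 from edgeR). S100a14, which lies between S100a13 and S100a16, was at 0.665, 0.131 and 0.0391 TPM in wild-type samples and 2.82, 1.01 and 1.48 TPM in clones 8, 11 and 15, with a log2 fold change of 2.61 (SE 0.94, adjusted p of 0.206 from edgeR). S100a5, S100a7a, S100a8 and S100a9 had no reads in uninduced wild-type cells, and S100g had none in any library. Lists of the other S100 genes, S100 partners, S100-fused genes and EF-hand genes outside the family were compared in the same way. Of 65 genes in 6 such lists, 44 were tested between uninduced ΔCdk8 and wild-type cells. With edgeR 0 passed, as did 0% of 13961 genes, while 15 had an unadjusted p under 0.05, beside 2821 of all 13961. DESeq2 called 1, Ahnak, and 2.47% of all genes, with 16 list genes and 3418 of all genes at an unadjusted p under 0.05.

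The annexins and Ahnak, whose products S100 proteins bind at membranes, had a median log2 fold change of 1.19 over 8 genes, with 7 higher and 1 lower in the clones, against a median of 0.021 over all genes tested and 0.41 over those of chromosome 3. Their summed TPM was 450, 305 and 292 in wild-type samples 1, 2 and 3 and 788, 397 and 875 in clones 8, 11 and 15. Clone 11 thus lay within the wild-type range. It was below wild-type sample 1 in Anxa1, Anxa2, Anxa4, Anxa5 and Anxa6, and above all wild-type samples in Anxa7, Anxa11 and Ahnak. Ahnak encodes a scaffold protein bound by the S100a10 and annexin A2 complex. It was at 4.26, 1.72 and 2.65 TPM in uninduced wild-type samples and 8.08, 9.76 and 9.32 TPM in the clones, a log2 fold change of 1.52 (SE 0.32, adjusted p of 0.131 from edgeR and 0.000991 from DESeq2). Of the annexins with the highest mean levels, Anxa7 had a log2 fold change of 0.87 (SE 0.20, adjusted p of 0.134 from edgeR), Anxa11 0.50 and Anxa6 −0.027. Anxa2, the partner of S100a10, was chosen after its values were seen. It was at 121, 8.89 and 5.69 TPM in wild-type samples 1, 2 and 3 and 246, 48.1 and 279 TPM in clones 8, 11 and 15, with a log2 fold change of 1.88 (SE 1.15, adjusted p of 0.365 from edgeR). As in S100a6, wild-type sample 1 was far above the other wild-type samples, but unlike in S100a6 clone 11 lay below it.

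The intracellular partners had a median log2 fold change of 0.064 over 11 genes. Cacybp, the binding partner of S100a6, had a log2 fold change of 0.064 and the membrane linker Ezr one of −0.66 (adjusted p of 0.154 from edgeR). Ppp5c, a protein phosphatase gene, was at 143, 178 and 189 TPM in wild-type and 133, 135 and 109 TPM in the clones, all below the wild-type samples, with a log2 fold change of −0.57 (adjusted p of 0.196 from edgeR). Ezr and Iqgap1 were also lower in every clone than in any wild-type sample, and Sugt1 was higher. Of all genes tested 6.94% were separated downward and 16.6% upward. Receptors and clients had a median of 0.43 over 5 tested genes, with Bsg, which encodes basigin, at 0.28, Plat, the tissue plasminogen activator, at 1.88 (adjusted p of 0.168 from edgeR) and Ager, the receptor for advanced glycation end products, at 0.43. The 17 tested EF-hand genes outside the family had a median of 0.22, with the calmodulin genes Calm2 at 0.22 and Calm3 at −0.18 and Capns1, the small calpain subunit, at 0.84. Of the genes that encode S100-fused proteins of the epidermis only Tchh was tested, at −0.17.

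Markers of other cell types were measured beside the S100 genes. The 8 ESC markers summed to between 3367 and 6370 TPM in uninduced wild-type and between 4129 and 7021 TPM in uninduced ΔCdk8 cells, with 7 markers higher and 1 lower in the clones and a median log2 fold change of 0.49. Pou5f1 was between 713 and 1779 TPM in uninduced cells. Nanog, at 157, 98.4 and 50.2 TPM in wild-type and 403, 321 and 192 TPM in the clones, and Tfcp2l1, at 39.4, 16.9 and 10.01 TPM against 91.9, 102 and 76.7 TPM, did not overlap between the genotypes, with adjusted p of 0.179 and 0.154 from edgeR and of 0.0232 and 0.00246 from DESeq2. Sox2, Esrrb and Klf4 did not overlap either and were also higher in the clones, beside 16.6% of all genes tested. The 8 fibroblast markers summed to 8.84 to 18.1 TPM and 20.4 to 30.2 TPM in the same groups, with Thy1 between 8.32 and 28.7 TPM. Of these 8, only 4 had enough reads to be tested, and all 4 had higher fitted levels in the clones, with a median log2 fold change of 1.78. In clone 15 Col1a1 was at 3.36, Col1a2 at 3.67 and Postn at 2.71 TPM, against at most 0.625, 0.539 and 0.196 TPM in uninduced wild-type, while Col3a1, Dcn and Lum did not exceed 0.345 TPM in any uninduced library. In clones 8 and 11 Col1a1 was at 0.682 and 0.462, Col1a2 at 0.169 and 0.0793 and Postn at 0.0946 and 0 TPM. Col1a2 and Postn thus exceeded the wild-type samples in clone 15 alone. Dcn was at 0.191, 0.102 and 0.345 TPM in wild-type and 0.0211, 0.234 and 0 TPM in clones 8, 11 and 15. The 6 trophoblast markers summed to 46.8, 13.2 and 13.5 TPM in wild-type samples 1, 2 and 3 and to 81.2, 25.9 and 73.3 TPM in clones 8, 11 and 15. All 6 had higher fitted levels in the clones, with a median log2 fold change of 1.15. Eomes was at 3.64, 1.73 and 1.45 TPM in wild-type and 14.1, 3.84 and 8.70 TPM in the clones, Tfap2c at 31.0, 10.7 and 10.5 against 55.3, 17.6 and 39.6 TPM, and Elf5 at 1.24, 0 and 0.0157 against 3.22, 0.765 and 1.76 TPM, while Cdx2 did not exceed 0.824 TPM in any uninduced library. The 4 simple epithelial markers summed to 439, 291 and 338 TPM and to 492, 356 and 864 TPM in the same samples, among them Krt18 at 69.6, 17.4 and 27.3 TPM in wild-type and 107, 35.7 and 320.4 TPM in the clones. The 7 mesenchymal markers, at 255 to 326 TPM in wild-type and 233 to 267 TPM in the clones, mostly from Fn1 and Vim, had 5 genes with higher and 2 with lower fitted levels in the clones and a median log2 fold change of 0.18. Among them Snai1, at 0.695, 1.89 and 2.05 TPM in wild-type and 2.22, 3.48 and 2.30 TPM in the clones, did not overlap between the genotypes. In uninduced cells the 6 primitive endoderm markers summed to 5.43 to 7.47 TPM in wild-type and 5.43 to 10.7 TPM in the clones, with 2 of the 4 tested higher and 2 lower. Among them Gata4, at 1.13, 0.164 and 0.536 TPM in wild-type and 1.82, 2.37 and 5.42 TPM in the clones, did not overlap between the genotypes. The 6 two-cell-like markers summed to between 0.106 and 1.60 TPM in wild-type and to 7.38, 0.398 and 15.3 TPM in clones 8, 11 and 15, so that clone 11 lay within the wild-type range, and the 3 myeloid markers in the tables to 10.2 to 20.3 TPM and 24.1 to 57.3 TPM, nearly all Cd68. Single markers that did not overlap between the uninduced genotypes also included Col6a1, Eomes, Tcstv1 and Cd68, all higher in the clones. Over all genes tested 16.6% were separated in that direction. The part of other cell types in the S100 values was not tested.

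The genes whose pattern was most like that of each member were found by Pearson correlation of log2(TPM + 1) over the 12 libraries among 12131 genes with a mean of at least 1 TPM. They were Ubd, Polh and Adipor1 for S100a1 and Med12l, Osbpl11 and Dbt for S100a13. S100a16 was followed most closely by Sh3pxd2b, Mfsd1 and Efemp2, S100a3 by Phkg1, Atxn2 and Afap1l1, and S100a4 by Tube1, Golph3l and Ythdf3. Nab1, Rlbp1 and S100a10 were most like S100a6, Col4a1, Zbtb10 and Gsn most like S100a11, and Ttc25, Gnpnat1 and Abhd6 most like S100a10. The correlations of these 24 genes lay between 0.94 and 0.99, and 7 of them, the member S100a10 included, lie on chromosome 3, which holds 4.59% of the genes compared. With Spearman correlation 2 of the 24 were kept, so the names rest on the measure of likeness.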

How the data were processed

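Polyadenylated RNA of 12 libraries was sequenced by the authors from stranded libraries and aligned in CLC Genomics Workbench, without trimming, against GRCm38 from Ensembl. Whether counting used strand is not given in the sources used here. The authors deposited 1 table of 25759 genes per library with counts of reads on genes, exons and introns, TPM values, RPKM values and fractions of unique and intron reads. The deposited TPM values equal exon reads per exon length scaled per library (largest relative deviation 0.000196). The deposited RPKM values and fractions were not used.

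Groups, sample numbers and clones came from the sample titles. The members and gene lists were chosen with earlier results of these data known. Named genes were the 8 members, for each list any gene past the threshold and the 3 with the highest mean TPM, the nearest expressed neighbours, and the 3 genes most correlated with each member. Other genes, among them single cell type markers, were named with their values seen. Total exon reads were tested with the 2-sided quasi-likelihood test of edgeR 4.0.16 (R 4.3.3) after TMM scaling and Benjamini-Hochberg adjustment, on genes kept by filterByExpr (min.count 10, min.total.count 15), and calls needed an adjusted p under 0.01 and a more than 2-fold change. Standard errors are the log2 fold change over the square root of F. S100a3 and S100a4 did not pass the filter in wild-type cells, nor S100a3 between the uninduced genotypes. The p-values measure the spread between samples, which may be technical in wild-type cells, and with 3 against 3 a permutation test cannot go below 0.1. DESeq2 1.42.0, other normalizations, filters, read types and thresholds, and leaving out each sample were alternatives, and unique reads between the genotypes were added after seeing the data. Fits were tested on simulated counts.

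Deviations from the group mean over 14418 genes correlated between uninduced and induced samples of the same number at 0.60, 0.42 and 0.40 in wild-type and 0.77, 0.82 and 0.73 in ΔCdk8 cells, so the numbers of the titles pair the samples. The alternative fit has the number as a replicate block. Positions matched GENCODE M21 on GRCm38 for all 8 members. Start regions were those of RefSeq (GRCm38.p6). Reads were not analysed here.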

Additional observations from a re-analysis of the deposited data

How the results depend on the processing

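The counts of S100 genes called on induction in either genotype, and in the difference between the genotypes, were 0 under every alternative run, and stayed 0 when each sample was left out. With the replicate block 0 members were called in each of the 3 comparisons, as without it, while on induction of wild-type cells 2 of the annexins and Ahnak and 1 EF-hand gene outside the family were called against 0 without the block. Among the list genes 1 was called with DESeq2 against 0 with edgeR between uninduced genotypes, and 0 when any sample was left out. The number of members with all clones above all wild-type samples ranged from 4 to 8 when each sample was left out, with 7 without wild-type sample 1, when 31.2% of all genes and 42.3% of chromosome 3 genes were separated, and 8 without clone 11, when 39.7% and 74.7% were. Of the 24 most correlated genes, 2 were kept with Spearman correlation and 15 with a pseudocount of 0.1, so these names depend on the measure. Leaving out 1 sample reversed the sign of some log2 fold changes. In ΔCdk8 cells S100a1 ranged from −0.048 (without clone 8) to 0.51, S100a6 from −0.13 to 0.029 (without clone 11) and S100a10 from −0.086 to 0.024 (without clone 11). In the difference between genotypes S100a16 ranged from −0.027 (without wild-type sample 2) to 0.57, S100a4 from −5.76 to 2.52 (without wild-type sample 1), S100a6 from −0.0057 (without clone 15) to 0.18 and S100a11 from −0.32 to 0.083 (without wild-type sample 1). The cause was not tested. Depth limits S100a3 and S100a4.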

Other observations

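Anxa2 and Anxa5 were looked at after their values on induction had been seen. Anxa2, which encodes the partner of S100a10, was lower after 48 h with doxycycline in all 6 pairs, going from 121, 8.89 and 5.69 to 52.2, 4.996 and 5.46 TPM in wild-type samples 1, 2 and 3 and from 246, 48.1 and 279 to 119, 19.6 and 183 TPM in clones 8, 11 and 15. With the clone as a block the log2 fold change in ΔCdk8 cells was −0.92 (SE 0.10, adjusted p of 1.01e-05 from edgeR), below the 2-fold threshold, and without the block the adjusted p was 1.00. In wild-type cells it was −0.71 (SE 0.24, adjusted p of 0.0872) with the block and −1.11 (adjusted p of 0.706) without it. S100a10 itself went from 318, 227 and 317 to 303, 202 and 327 TPM in the same clones.

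Anxa5 moved the other way, with induced over uninduced ratios of 2.02, 2.98 and 2.03 in wild-type samples 1, 2 and 3 and 1.34, 1.68 and 1.19 in clones 8, 11 and 15. In wild-type cells its log2 fold change was 1.23 (SE 0.16, adjusted p of 0.00578 from edgeR) with the block and 1.17 (SE 0.46, adjusted p of 0.211) without it. Ahnak went from 4.26, 1.72 and 2.65 to 11.04, 3.85 and 5.42 TPM in wild-type cells, with a log2 fold change of 1.23 (SE 0.089, adjusted p of 0.00119 from edgeR) with the block and 1.26 (adjusted p of 0.180) without it. In ΔCdk8 cells Ahnak had a log2 fold change of 0.29 with the block, and the difference between the genotypes, −0.92 (SE 0.14, adjusted p of 0.00711 from edgeR with the block, and 1.00 without it), was below the 2-fold threshold.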
